A study of Mus musculus with 7 samples.

Results

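The nuclear receptor coregulator genes Ncoa1, Ncoa2, Ncoa3, Ncor1, Med1 and Carm1, were examined for chromatin binding of estrogen receptor beta (ERβ) in mouse ovary. They are 6 of the 21755 protein-coding genes annotated on the autosomes and chromosome X. Each locus was the gene body in GENCODE release M21 on assembly mm10 (GRCm38) with 50 kb added on each side. Within these loci, the mean signal of each ERβ ChIP-seq library in windows of 200 bp was divided by the mean of 2 inputs, and the input was set to at least its genome mean. A site was a window, or a run of neighbouring windows, over 4-fold in 2 or more of 3 ChIP libraries. The 6 loci held 11 of the 4816 sites found in the genome by the same rule.

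The libraries came from fresh whole ovaries of C57BL/6J females, a few weeks to a few months old, that express ERβ from the endogenous gene and were given no treatment. ChIP-seq, which sequences the DNA fragments held by an antibody, was performed with the ERβ antibody PPZ0506 in 3 replicates of pooled ovaries, and 2 inputs of the same kind of chromatin were sequenced without enrichment. The whole ovary mixes granulosa, theca, stromal and luteal cells, and signal in few cells cannot be told apart from weak signal in many. The 2 ChIP samples from ERβ knockout ovaries were not analysed here, so antibody signal was compared with input only.

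Nuclear receptors such as ERβ activate or repress transcription by recruiting coregulators. The p160 coactivators Ncoa1, Ncoa2 and Ncoa3 dock on the ligand-bound receptor and bring in histone-modifying enzymes such as the arginine methyltransferase Carm1. Med1 is the Mediator subunit that links nuclear receptors to RNA polymerase II, and Ncor1 is a corepressor that holds histone deacetylase complexes on unliganded receptors. ERβ binds DNA at the estrogen response element (ERE), an inverted repeat of the half-sites GGTCA and TGACC with a spacer of 3 bases. In the ovary ERβ is known mainly from granulosa cells, where it takes part in follicle maturation.

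The sequences of 6 sites are printed because they are the strongest in the Ncoa3, Ncoa1, Med1 and Ncor1 loci, and because the order of their signal was not the order of their match to the ERE. Each is the 200 bp of the site, read 5′ to 3′ on the plus strand of GRCm38 as held by RefSeq. Capitals mark the stretch closest to an ERE, counted over its 10 fixed bases. Substitutions are written with the ERE base first, the position from 1 at the 5′ end of the element, and the base of the site last.
Ncoa3, 130 kb from the TSS, chr2:166122991-166123190: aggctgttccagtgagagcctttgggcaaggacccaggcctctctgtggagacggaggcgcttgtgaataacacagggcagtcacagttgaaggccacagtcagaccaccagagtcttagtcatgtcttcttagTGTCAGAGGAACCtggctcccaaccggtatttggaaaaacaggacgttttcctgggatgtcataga
Ncoa3, 124 kb from the TSS, chr2:166116221-166116420: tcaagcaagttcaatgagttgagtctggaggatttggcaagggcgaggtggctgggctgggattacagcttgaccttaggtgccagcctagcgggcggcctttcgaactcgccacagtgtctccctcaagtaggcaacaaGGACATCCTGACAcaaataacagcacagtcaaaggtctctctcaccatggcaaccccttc
Ncoa1, 247 kb from the TSS, chr12:4230291-4230490: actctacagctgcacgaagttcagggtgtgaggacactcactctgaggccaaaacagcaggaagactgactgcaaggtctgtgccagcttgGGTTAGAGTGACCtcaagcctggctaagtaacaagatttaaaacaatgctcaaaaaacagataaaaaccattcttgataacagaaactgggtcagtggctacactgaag
Ncoa1, promoter, chr12:4477251-4477450: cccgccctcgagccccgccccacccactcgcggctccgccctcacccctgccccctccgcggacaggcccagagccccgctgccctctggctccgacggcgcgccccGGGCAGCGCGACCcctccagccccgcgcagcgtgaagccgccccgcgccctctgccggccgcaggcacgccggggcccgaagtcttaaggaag
Med1, intron 2, chr11:98184101-98184300: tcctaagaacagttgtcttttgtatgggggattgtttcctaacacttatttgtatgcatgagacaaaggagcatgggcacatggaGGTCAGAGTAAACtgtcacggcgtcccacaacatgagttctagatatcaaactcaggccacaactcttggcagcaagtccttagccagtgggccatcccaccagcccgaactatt
Ncor1, 182 kb from the TSS, chr11:62276131-62276330: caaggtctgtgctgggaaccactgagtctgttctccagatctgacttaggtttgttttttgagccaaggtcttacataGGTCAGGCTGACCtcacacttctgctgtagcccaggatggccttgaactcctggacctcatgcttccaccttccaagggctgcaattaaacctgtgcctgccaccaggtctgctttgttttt

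The sites were unevenly spread over the 6 genes. Ncoa3 had 4 sites, Ncor1 had 3, Ncoa1 had 2, Ncoa2 and Med1 had 1 each, and Carm1 had none. Of all protein-coding loci, 27.4% held at least 1 site, against 5 of the 6 coregulator loci. The coregulator loci were longer than most, with a median length of 211 kb against 117 kb over all protein-coding genes. Per length they held 8.0 sites per Mb, whereas all protein-coding loci joined together held 2.41 sites per Mb and the whole genome 1.83. The 6 genes were chosen with earlier results of these data known, so the comparisons in this paragraph are descriptions with no test. Of 24 other coregulator genes, described below, 7 had a site. At least 4 sites, the number in the Ncoa3 locus, were present in 1.14% of protein-coding loci. Among single windows, 229 were over 4-fold in 2 or more ChIP libraries in the 6 loci, which was 0.167% of their windows against 0.045% in the genome. One input divided by the other passed 4-fold in 244 stretches of the genome, and none of these lay in the 6 loci.

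Most of the sites lay outside the coregulator genes. By the position of their centres, 3 of the 11 sites were within the body of Ncoa2, Ncor1 or Med1. A further 1 was upstream of Ncoa1, and 7 were downstream of Ncoa1, Ncoa3 or Ncor1. All 7 downstream sites lay inside another gene, and for 7 of the 11 sites the nearest protein-coding TSS belonged to another gene. The map of fold along each locus shows these positions.

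**Figure D1:**
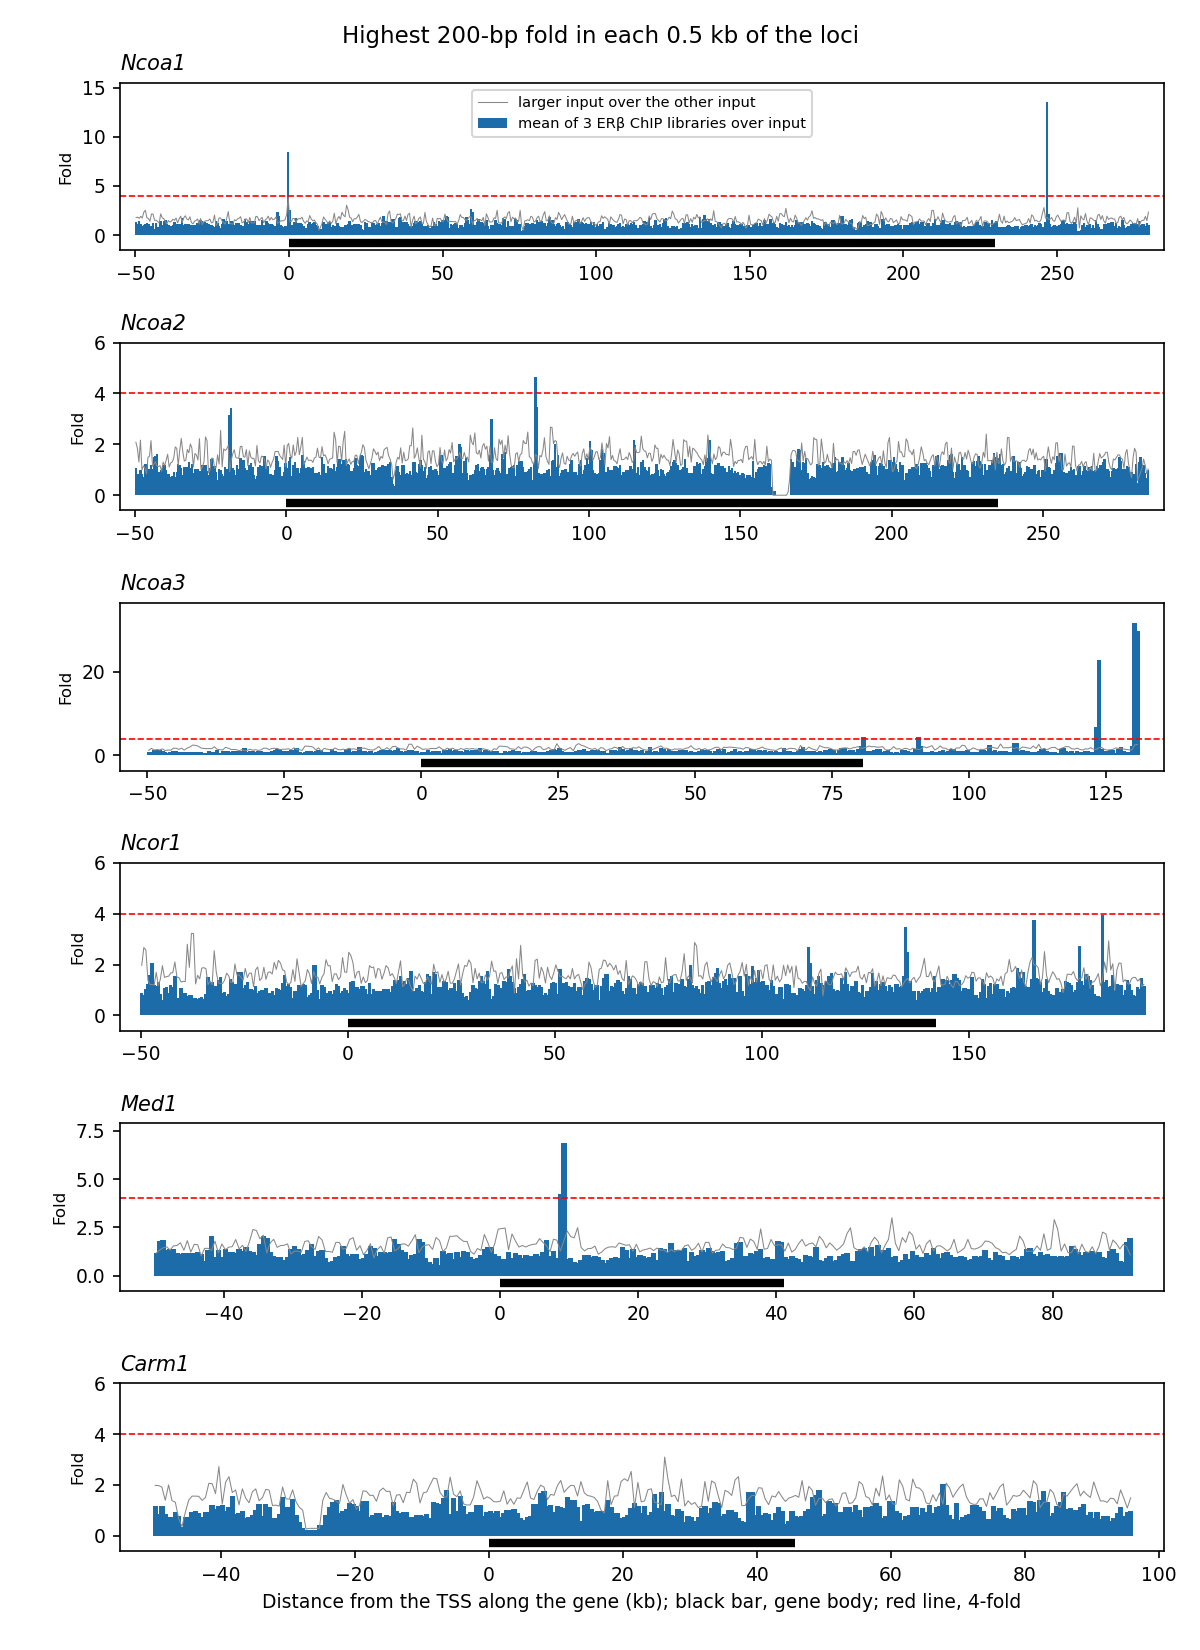
Highest fold over input of any 200-bp window in each 0.5 kb, as the mean of 3 ERβ ChIP libraries (blue bars), against distance from the TSS in kb for each of the 6 genes. The grey line is the larger input over the other input, the black bar is the gene body and the red dashed line is 4-fold. The tallest bars stand past the 3′ end of Ncoa3 and Ncoa1. No bar reached the line at Ncor1, where the highest mean fold was 3.94, or at Carm1.

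At Ncoa3, the p160 coactivator also known as SRC-3 or AIB1, no site had its centre in the gene body or the upstream flank. Its locus (gene body chr2:165992636-166073242, plus strand) held the 2 strongest of the 11 sites, both inside the neighbouring Sulf2, which encodes an extracellular enzyme that removes sulfate groups from heparan sulfate. The strongest site lay in intron 2 of 20 of Sulf2, 49.8 kb past the 3′ end of Ncoa3 and so at the very edge of the locus, and 32.6 kb from the TSS of Sulf2.

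The signal at this site was 24.1, 23.5 and 24.9 in ChIP replicates 1, 2 and 3, and 0.594 and 0.928 in Input replicates 1 and 2. All 3 ChIP libraries stood far above both inputs and close to each other. The rule that chose the sites fixes much of the separation from input, here and at the other sites. The fold over input was 31.7, 30.9 and 32.7, a mean of 31.8 ± 0.941 (SD, n = 3). Of all sites in the genome, 41 had a larger mean fold, and the median over all sites was 6.24.

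The next site of the Ncoa3 locus lay in intron 3 of 20 of Sulf2, 43.1 kb past the end of Ncoa3. Its signal was 17.4, 19.5 and 20.5 in the ChIP libraries and 0.939 and 0.741 in the inputs, again with no overlap. The fold was 20.8, 23.2 and 24.4, with a mean of 22.8 ± 1.86 (SD, n = 3). The other 2 Ncoa3 sites were near the threshold, with mean folds of 4.48 and 4.40, and each passed 4-fold in 2 libraries. One of them spanned the 3′ end of Ncoa3 itself, with its centre 58 bp past that end. There the last exon of Sulf2 (exon 21, untranslated) is annotated on the opposite strand.

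At Ncoa1, also known as SRC-1 (gene body chr12:4247362-4477182, minus strand), the stronger site lay 17.0 kb past the 3′ end, in intron 3 of 5 of Cenpo, which encodes a centromere protein. Its nearest TSS was that of Ptrhd1, at 3.64 kb. The signal was 6.24, 8.64 and 9.13 in ChIP replicates 1 to 3 and 0.461 and 0.726 in the inputs. The fold was 10.5, 14.6 and 15.4, with a mean of 13.5 ± 2.62 (SD, n = 3), and ChIP replicate 1 was the lowest of the 3.

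The other Ncoa1 site lay in the promoter, with its centre 168 bp upstream of the TSS, and was the only promoter site among the 11. The ChIP signal was 3.83, 6.14 and 8.48 and the inputs were 1.04 and 0.41. The ChIP libraries were again above both inputs, but here the inputs themselves differed by 2.55-fold. The fold over the mean input was 5.27, 8.45 and 11.7, with a mean of 8.46 ± 3.20 (SD, n = 3). The sequence was very rich in G and C, at 80% against a median of 49.5% over all sites of the genome.

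Med1 (gene body chr11:98152154-98193293, minus strand) had 1 site, in its own intron 2 of 16, 9.09 kb from the TSS. The signal was 1.42, 2.31 and 4.10 in ChIP replicates 1 to 3 and 0.351 and 0.41 in the inputs. The ChIP libraries lay above both inputs but were spread widely, with folds of 3.74, 6.09 and 10.8 and a mean of 6.87 ± 3.58 (SD, n = 3). ChIP replicate 1 did not pass 4-fold.

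Ncoa2 (gene body chr1:13139105-13374083, minus strand), the p160 coactivator also called GRIP1 or TIF2, had 1 site, in intron 1 of 21 and 82.4 kb from the TSS. The signal was 2.10, 3.39 and 2.91 in the ChIP libraries and 0.663 and 0.537 in the inputs. The folds of 3.50, 5.64 and 4.84 gave a mean of 4.66 ± 1.08 (SD, n = 3), and ChIP replicate 1 was again below 4-fold.

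Ncor1, the only corepressor of the 6 (gene body chr11:62316426-62458541, minus strand), had 3 sites, all weak. The strongest lay 40.2 kb past its 3′ end in intron 2 of 4 of Zswim7, with ChIP signal of 2.66, 2.73 and 2.09 and input signal of 0.531 and 0.735. Its folds were 4.21, 4.31 and 3.30, a mean of 3.94 ± 0.559 (SD, n = 3). The next lay in intron 5 of 7 of Ttc19, with ChIP signal of 1.12, 2.22 and 2.29 and input signal of 0.300 and 0.695, and its folds were 2.24, 4.46 and 4.60, a mean of 3.77 ± 1.32 (SD, n = 3). The third, in intron 42 of 45 of Ncor1, which overlaps Ttc19, had a mean fold of 3.42 ± 1.19 (SD, n = 3).

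Carm1 (gene body chr9:21546894-21592623, plus strand) had no window over 4-fold in 2 libraries. Its strongest window lay in intergenic sequence 67.9 kb from the TSS. The ChIP signal there was 0.891, 0.351 and 1.498 and the input signal 0.419 and 0.47, so the groups overlapped. The folds were 2.00, 0.788 and 3.37, with a mean of 2.05 ± 1.29 (SD, n = 3).

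**Figure D2:**
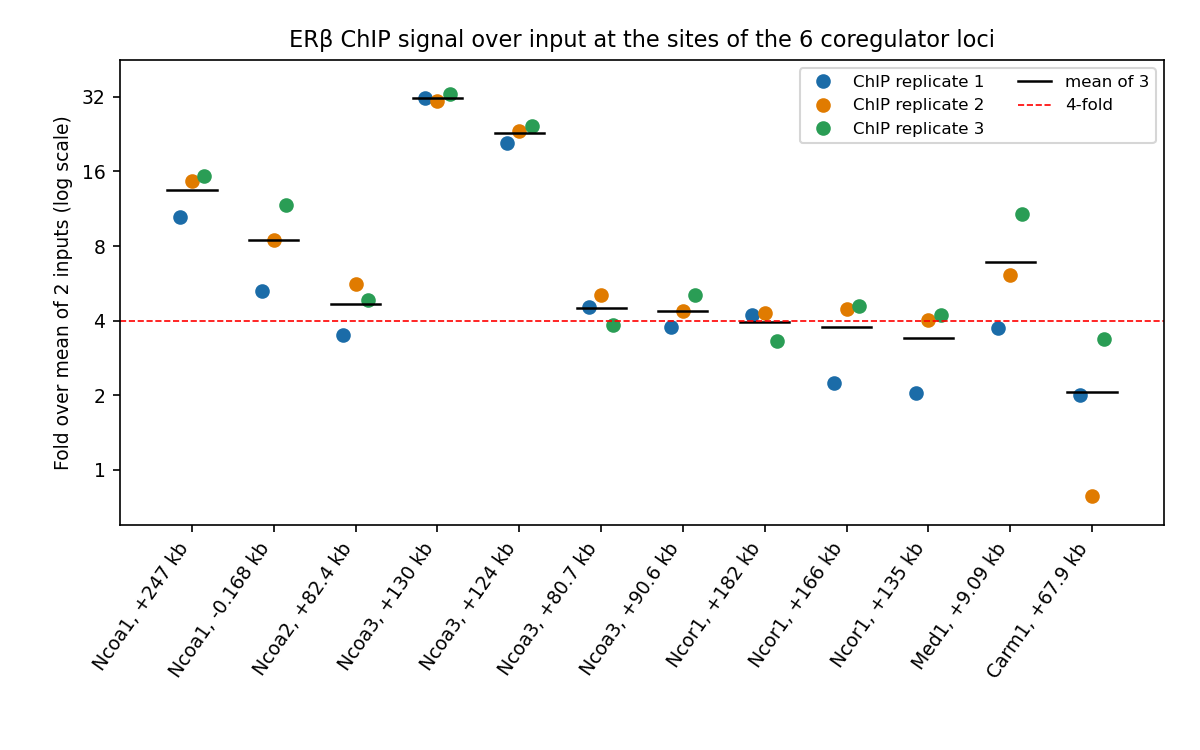
Fold over the mean of 2 inputs (log scale) in each of 3 ERβ ChIP libraries (points) and their mean (black line) at the 11 sites and at the strongest window of Carm1, named by gene and distance from its TSS. The 2 strongest Ncoa3 sites and both Ncoa1 sites lie above the 4-fold line in every library, and ChIP replicate 1 falls below it at 5 of the other 7 sites.

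The 11 sites thus differed in how well the replicates held them. Only 4 passed 4-fold in all 3 ChIP libraries, namely the 2 strong Ncoa3 sites and both Ncoa1 sites. The remaining 7 passed in 2 libraries, and the library that fell short was ChIP replicate 1 at 5 of them and ChIP replicate 3 at 2. In all, 6 of the 11 were below the median fold of 6.24 over all sites of the genome. With both remaining libraries required, 9 sites were left without ChIP replicate 1, 5 without ChIP replicate 2 and 6 without ChIP replicate 3, and all of these were among the 11.

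Near the threshold, ranked by the second highest fold of the 3 libraries, the called stretches just inside were at Ncor1, with 4.05 and 4.23. Just outside were stretches at Ncoa2 with 3.59, at Ncor1 with 3.14 and at Ncoa3 with 3.07.

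The signal around the strongest sites formed single narrow peaks. At both Ncoa3 sites the 3 ChIP profiles ran almost on top of each other, and at the Ncoa1 promoter and the Med1 intron they had the same place but unequal heights. The stretch over 4-fold covered 840 and 640 bp at the Ncoa3 sites, 540 bp at the distal Ncoa1 site, 450 bp at the Ncoa1 promoter, 400 bp in Med1 and from 210 to 310 bp at the other 6 sites.

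**Figure D3:**
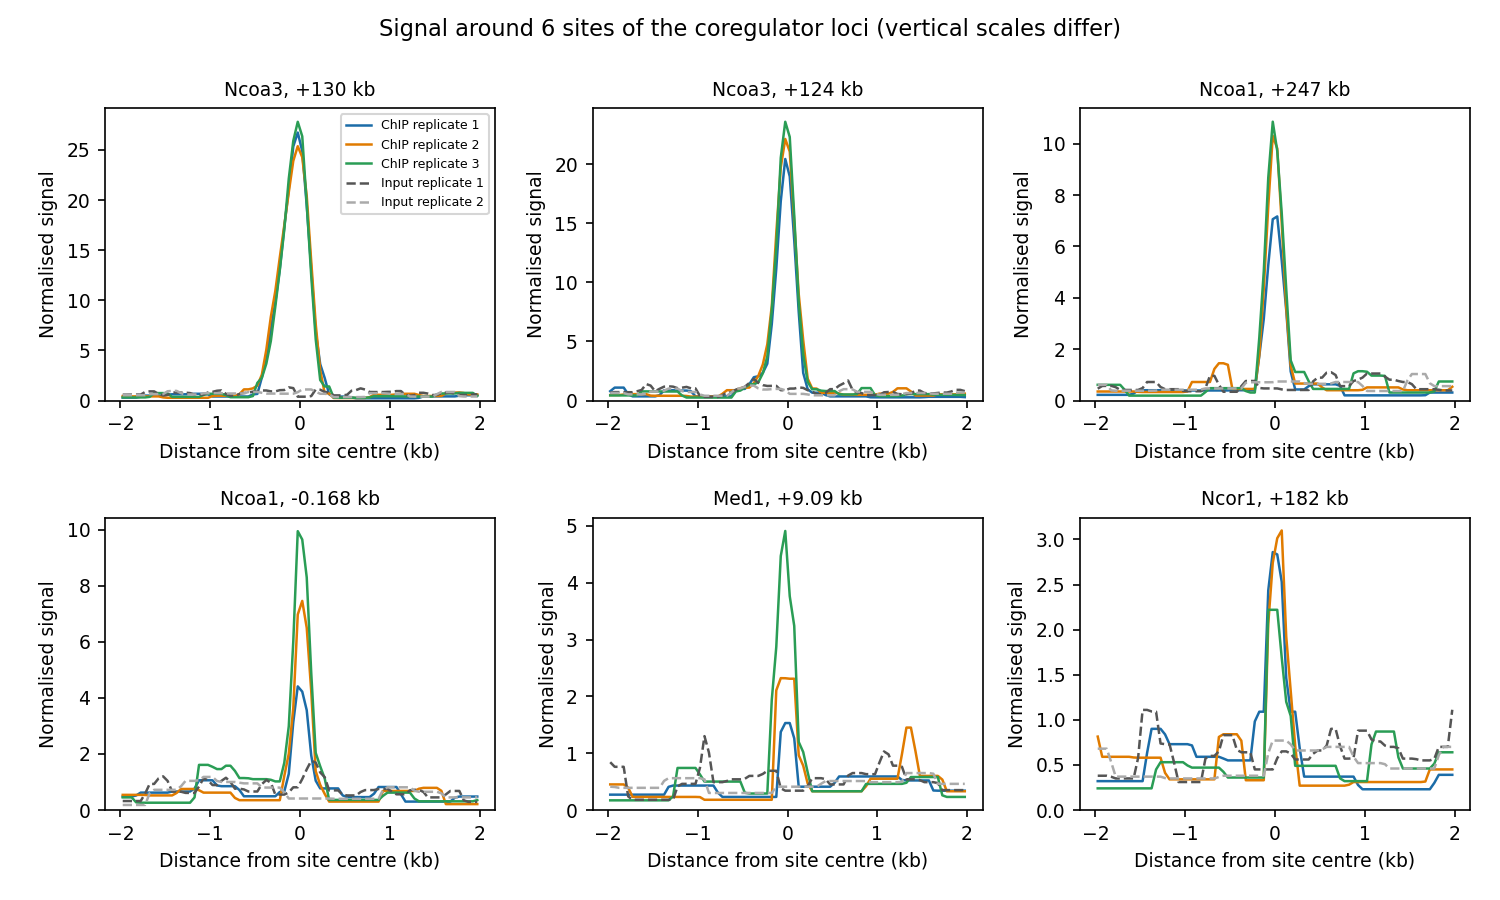
Normalised signal against distance from the site centre in kb for the 3 ERβ ChIP libraries (solid) and 2 inputs (dashed) at 6 sites, named by gene and distance from its TSS. Vertical scales differ, and a single ChIP peak stands over lower inputs at each site, with replicates of near equal height at Ncoa3 and unequal height at the Ncoa1 promoter and Med1.

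Since the fold itself chose the sites, it was read again in a ChIP library left out of the call, although both inputs still entered the call and the fold. Sites called in ChIP replicates 2 and 3 numbered 9, and their median fold in ChIP replicate 1 was 3.76, with 4 over 4-fold, against 74.6% of such sites genome-wide. Of the 5 sites called without ChIP replicate 2, the median fold in that library was 14.6 and 4 passed, against 93.4% genome-wide. Of the 6 called without ChIP replicate 3, the median was 13.5 and 4 passed, against 88% genome-wide.

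The same sites, the 2 strong ones of Ncoa3 and both of Ncoa1, made up the 4 in each case. The mean of the 3 held-out medians was 10.6 ± 5.96 (SD, n = 3), against 7.06 ± 1.19 (SD, n = 3) over the genome. The 3 coregulator medians came from different lists of 9, 5 and 6 sites, so their spread is not that between libraries at the same sites. The lists of 5 and 6 were mostly the same 4 strong sites. Held-out medians over the genome were 5.71, 7.94 and 7.53 for ChIP replicates 1, 2 and 3, so the coregulator median was the lower one for ChIP replicate 1. Over the 11 sites the median of the mean folds was 4.66, against 6.24 over all sites of the genome. At the strongest Ncoa3 site the held-out folds were 31.6, 30.9 and 32.6.

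Track names divided the libraries, since ChIP replicates 2 and 3 and Input replicate 2 shared a prefix that ChIP replicate 1 and Input replicate 1 lacked. What the prefix stands for is not stated. Each ChIP library divided by the input of its own name gave folds of 40.6, 25.3 and 26.9 at the strongest Ncoa3 site and 13.5, 11.9 and 12.6 at the distal Ncoa1 site. At the Ncoa1 promoter it gave 3.67, 15.0 and 20.7, so ChIP replicate 1 no longer passed 4-fold there. With this division 9 of the 11 sites were still called, and the 2 that were lost belonged to Ncor1.

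Every window with its midpoint in the loci was also tested, whether or not it held a site. Windows of 1 kb were compared between the 3 ChIP libraries and 2 inputs with limma on log2(signal + 0.5), with Benjamini-Hochberg adjustment over all 2430645 windows of the genome. In the 6 loci 4 of 1367 windows were higher in ChIP, against 0.0957% of all windows, and 0 were lower, against 0.00267% of all windows. At an unadjusted p under 0.05, limma gave 14 higher windows in the loci, or 1.02% against 1.90% of all windows, and 107 lower windows, or 7.83% against 3.33%.

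The 4 higher windows belonged to Ncoa3 and Ncoa1 and contained or touched the sites above, so they are the same measurement tested another way. The window at chr2:166116001-166117000 in the Ncoa3 locus had signal of 5.43, 6.54 and 6.48 in ChIP and 1.02 and 0.686 in input, a log2 difference of 2.30 ± 0.25 (SE) with a limma adjusted p of 3.05e-07. The window at chr2:166122001-166123000, which takes in the flank of the strongest Ncoa3 site, differed by 1.93 ± 0.23 (SE, limma adjusted p = 2.08e-06). The centre of that site lay in the next window. The midpoint of that next window was past the edge of the locus, so it was not counted here, and 1.93 is not the difference at the centre of the site.

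At Ncoa1, the window at chr12:4230001-4231000 had a log2 difference of 1.39 ± 0.21 (SE, limma adjusted p = 0.000126). The promoter window at chr12:4477001-4478000 differed by 1.07 ± 0.21 (SE, limma adjusted p = 0.0132). That last call was lost without single libraries while the difference stayed similar in size, since leaving out ChIP replicate 2 gave a log2 difference of 1.08 (limma adjusted p = 0.245), leaving out ChIP replicate 3 gave 0.87 (limma adjusted p = 0.0577) and leaving out Input replicate 2 gave 0.82 (limma adjusted p = 1.00). No window of the Ncoa2, Ncor1, Med1 or Carm1 loci passed the adjusted threshold, and at an unadjusted p under 0.05 these loci had 3, 3, 2 and 0 higher and 11, 20, 8 and 22 lower windows.

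The promoters were compared in the same way, as the mean signal from 1 kb upstream to 100 bp downstream of the TSS. Over 21064 promoters, 0.076% were higher and 0.0237% lower in ChIP by limma with adjusted p under 0.05, and 0 of the 6 coregulator promoters were called. At an unadjusted p under 0.05, 1 was higher (Ncoa1) and 1 lower (Ncoa3), where 1.37% of all promoters were higher and 10.95% lower.

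The Ncoa1 promoter had signal of 1.30, 1.75 and 2.43 in ChIP and 0.853 and 0.440 in input, so that the groups did not overlap. Its log2 difference was 1.01 ± 0.30 (SE), with an unadjusted p of 0.000841 and a limma adjusted p of 0.134. Leaving out ChIP replicate 1 gave a limma adjusted p of 0.00695 and leaving out ChIP replicate 3 gave 0.00125. The adjusted p was 0.431 without ChIP replicate 2, 1.00 without Input replicate 1 and 0.824 when Input replicate 2 was left out. The fit without ChIP replicate 1 called 0.399% of all promoters higher and 0.123% lower. The fit without ChIP replicate 3 called 0.945% of all promoters higher and 13.6% lower.

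The Ncoa3 promoter was below both inputs in every ChIP library, with 0.235, 0.473 and 0.707 against 0.830 and 0.774, a log2 difference of -0.45 ± 0.18 (SE, limma adjusted p = 0.301). Carm1 had promoter signal of 0.391, 0.739 and 1.05 in ChIP and 1.11 and 0.918 in input, with groups that overlapped and a log2 difference of -0.34 ± 0.23 (SE, limma adjusted p = 0.513). At both promoters ChIP replicate 1 was the lowest library. Both were called lower in the fit without ChIP replicate 3, in which 13.6% of all promoters were (limma adjusted p = 0.00426 for Ncoa3 and 0.0284 for Carm1). With any other single library left out the limma adjusted p ran from 0.536 to 1.00 for Ncoa3 and from 0.713 to 1.00 for Carm1.

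At Ncoa2 the promoter signal was 0.591, 0.677 and 1.19 in ChIP and 0.889 and 0.753 in input. Ncor1 had 0.512, 0.717 and 0.675 in ChIP and 0.838 and 0.648 in input. Med1 had 0.399, 0.787 and 0.726 in ChIP and 0.849 and 0.562 in input. ChIP and input overlapped at these 3 promoters, and the log2 differences were -0.03, -0.13 and -0.09. The median log2 difference was -0.11 over the 6 promoters and -0.13 over all promoters tested.

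**Figure D4:**
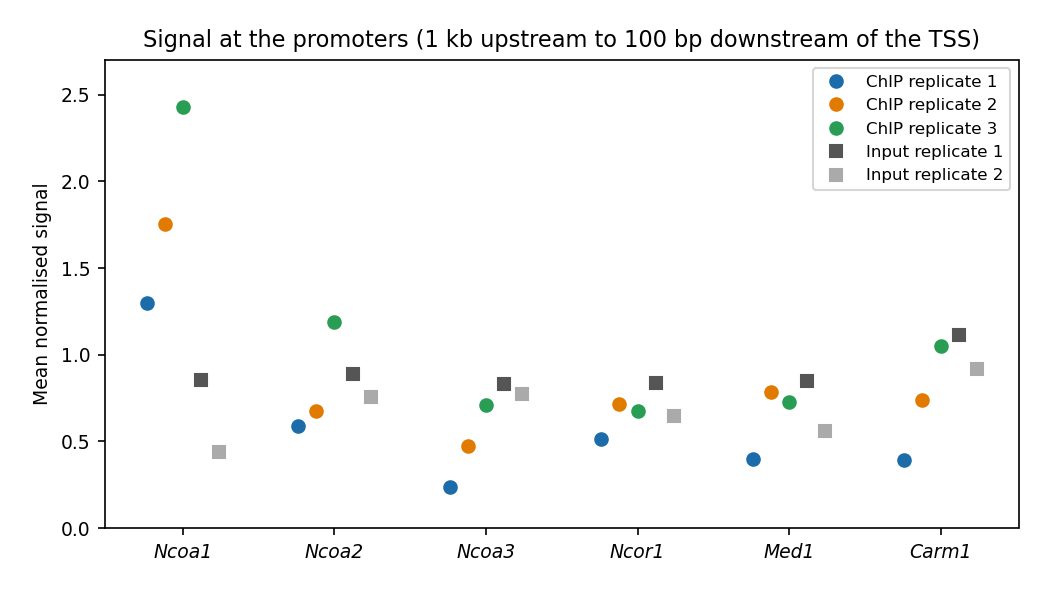
Mean normalised signal from 1 kb upstream to 100 bp downstream of the TSS of each of the 6 genes, with 1 point for each library (circles, 3 ERβ ChIP replicates; squares, 2 inputs). Only at Ncoa1 do all ChIP points, from 1.30 to 2.43, lie above both inputs.

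An ERE with at most 2 mismatches was present in 7 of 11 sites, or 63.6%, against 68.0% of all sites of the genome and 7.51% of all 200-bp tiles of the 6 loci. The share at the coregulator sites was therefore close to that of sites in general. With at most 1 mismatch, 2 coregulator sites remained, against 33.0% of all sites of the genome and 0.466% of the tiles.

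The only perfect ERE lay in the weak Ncor1 site in Zswim7, with a fold of 3.94, and 6.37% of all sites had one. The distal Ncoa1 site had 1 mismatch (C4T), with the element centred 2.5 bp from the site centre. The Ncoa1 promoter had 2 mismatches (T3G, T9C), as did the Med1 intron (G10A, C12A) and the second Ncoa3 site (T3A, C13A). The strongest site, at Ncoa3, had no element closer than 3 mismatches (G1T, T9G, G10A), and the one in capitals above lay 40.5 bp from its centre.

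The sites with an ERE had mean folds from 3.42 to 22.8 with a median of 6.87, and the 4 without had 3.77 to 31.8 with a median of 4.57. These are descriptions of overlapping ranges with no test.

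Other motifs known from ovarian chromatin were searched on both strands with no mismatch. The NR5A motif (TCAAGGTCA or CCAAGGTCA), bound by LRH-1 and SF-1, was in 0 of the 11 sites, against 7.18% of all sites and 1.12% of the tiles. This search was stricter than that for the ERE and did not count near matches. With 11 sites, a count of 0 cannot show that the share was below 7.18%. A GATA motif (AGATAA or TGATAA) was in 2 sites, at Ncoa1 and Ncor1, or 18.2%, against 29.7% of all sites and 19.4% of the tiles. The extended half-site AGGTCA, which lies within the NR5A motif and can be part of an ERE and was added after the sequences had been read, was in 5 of the 11 sites (45.5%), against 58.6% of all sites and 11.7% of the tiles. It was present in the second Ncoa3 site and the distal Ncoa1 site and absent from the strongest Ncoa3 site.

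Other coregulator genes were counted by the same rule. Of 24 genes, 7 had at least 1 site and 17 had none, close to the 27.4% of all protein-coding loci. They held 11 sites, 5 of them at Nrip1, and 6 genes had 1 each. Nrip1 encodes RIP140, a corepressor known for its role in ovulation.

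At Nrip1 the strongest site had folds of 24.3, 29.3 and 30.3, a mean of 27.9 ± 3.20 (SD, n = 3), and all 5 sites lay within the gene body. Ncoa7 followed with folds of 7.79, 9.13 and 9.27, a mean of 8.73 ± 0.814 (SD, n = 3). The 1 site of Pelp1, which encodes a scaffold protein that binds estrogen receptors, had folds of 5.28, 6.19 and 9.18, a mean of 6.88 ± 2.04 (SD, n = 3).

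In the 24 loci, limma called 5 of 3932 windows of 1 kb higher and 1 lower, against 0.0957% and 0.00267% of all windows. The lower one was in the Gps2 locus. By limma 0 of the 24 promoters were called, with 1 higher and 4 lower at an unadjusted p under 0.05 (1.37% and 10.95% of all promoters), and their log2 differences ran from -0.56 to 0.61 with a median of -0.16.

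**Figure D5:**
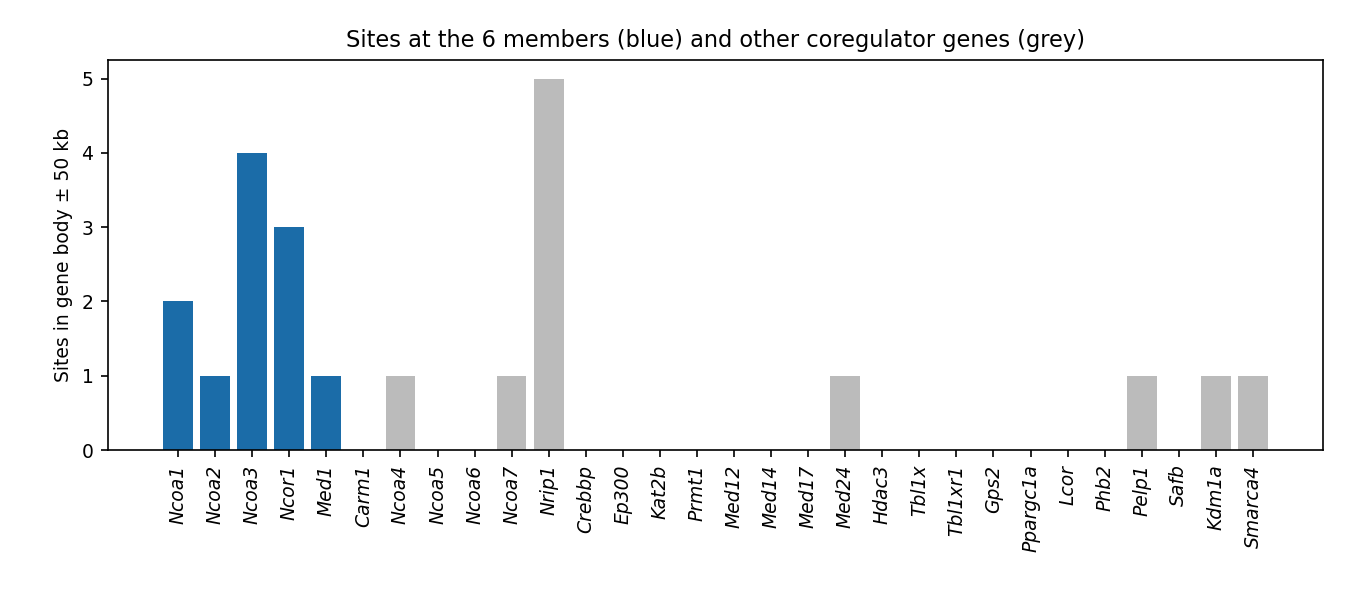
Number of ERβ sites in the gene body and 50 kb on each side of the 6 genes described here (blue) and of 24 other coregulator genes (grey). Nrip1 has 5 sites, Ncoa3 has 4, and Carm1 and 17 of the others have none.

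By the folds of its strongest site in the 3 ChIP libraries, Ncoa3 was most like Ralb, with folds of 30.3, 30.8 and 29.7 and a Euclidean distance of 0.15 on the log2 scale. Next came Cdc42, Cela3a and Cela3b, whose loci share 1 site with folds of 27.6, 31.0 and 31.9, at a distance of 0.20. The comparison ran over 3 libraries and over all protein-coding loci that do not overlap the Ncoa3 locus.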

How the data were processed

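ERβ ChIP-seq of mouse ovary (3 replicates) and 2 inputs were analysed, grouped by sample title. The 2 knockout ChIP samples were not analysed here. Per the labels and the study's methods, the authors aligned reads to mm10 with STAR and processed them with HOMER. The deposited values are signal (coverage) normalised by the authors to a common total, 1 track for each library. The summed signal was 928 to 948 M per library and the genome mean 0.371 to 0.379, so the tracks do not state read depth and no counting interval was given. Median segment length was 269 bp in Input replicate 1 and 481 to 519 bp in the others, so resolution was unequal. Input replicate 1 had 8320529 segments and the others 4396918 to 4600707. Whether its read depth also differed was not tested. Autosomes and chromosome X were used.

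Windows of 200 bp at 10-bp steps were compared with the input mean, and called stretches at most 200 bp apart were joined and shown by the window with the largest mean fold. Tiles of 1 kb with mean signal of at least 0.1 and promoters were tested with limma 3.58.1 (lmFit, eBayes with trend) in R 4.3.3 on log2(signal + 0.5), with Benjamini-Hochberg adjustment over all features and a threshold of 0.05. The pseudocount understates changes at low signal, and p-values measure the spread between these libraries only. The script was tested on simulated data. The distance from a TSS is that of the site centre from the 5′ end of the gene body. The tracks hold no transcript levels, so the tissue label was not checked against marker genes. All 6 genes were described, with values in every library for the 2 strongest sites of each or the strongest window, and of 24 other coregulators the 3 with the strongest sites were named. A further coregulator gene, not counted in these 24, is not reported here. The members, lists and rules were chosen with earlier results of these data known. Alternatives covered the fold, window, input, flank, floor, pseudocount, filter, motif mismatches, a replicate block and leaving out each library. The division by the input of the same track name was added after the data had been seen.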

Additional observations from a re-analysis of the deposited data

How the results depend on the processing

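The number of sites in the 6 loci, 11 in the report, was 4 at 8-fold, 4 when all 3 replicates had to pass, 7 in fixed 200-bp tiles, 5 in 400-bp windows, 3 with no flank, and 5 to 9 when 1 ChIP library was left out; each of these was among the 11. The number with an ERE was 1 with 0 mismatches allowed, 2 with 1 mismatch, 3 at 8-fold and 4 to 6 with 1 ChIP library left out. The held-out fold was 21.1 at 8-fold and 8.64 to 14.0 with 1 library left out. With 1 library left out, higher 1-kb windows numbered 3 to 4, lower ones 0 to 1 and called promoters 0 to 3, the 3 in a fit without ChIP replicate 3 that called 14.5% of all promoters. Same-numbered ChIP and input libraries had deviations from their group means correlated at 0.04 and -0.01. With 2 inputs the deviations of one mirror those of the other, so these values cannot decide whether the replicate numbers pair the libraries. A fit with the replicate number as a replicate block, which drops ChIP replicate 3 by construction, called 5 higher windows, 3 lower windows and 2 promoters, Ncoa1 (limma adjusted p = 0.0425) and Ncoa3 (limma adjusted p = 0.0232). Over all features that fit called 0.141% of windows higher, 0.132% lower, 0.446% of promoters higher and 5.15% lower. The cause of these shifts was not tested. With Input replicate 1 or 2 alone, the mean fold was 5.89 or 15.0 at the Ncoa1 promoter and 40.7 or 26.0 at the strongest Ncoa3 site. The tracks hold no read counts, and 2 inputs limit the precision of every fold.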

Other observations

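Widening the loci to 100 kb on each side, a setting of the analysis above, gave 13 sites, the 11 described and 2 more. One was counted for Carm1, which had none within 50 kb. It lies in an intron of Smarca4, which encodes the ATPase of the SWI/SNF chromatin remodelling complex, and had folds of 5.80, 6.53 and 7.79, a mean of 6.71 ± 1.01 (SD, n = 3). It is also the 1 site counted for Smarca4 among the 24 other coregulators. The other was counted for Ncor1 and had folds of 4.11, 5.38 and 3.89. Lowering the floor on the input to 0.5 times the genome mean added a stretch upstream of Ncoa2 with folds of 4.14, 2.98 and 5.26, so that the count was 12.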
